A study of Mus musculus with 6 samples.

Results

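The 39 Hox genes of the mouse were taken from a count table of 55286 gene symbols by name, the letters Hox followed by a cluster letter (a, b, c or d) and a number. They comprised 11 genes of the HoxA cluster, 10 of HoxB, 9 of HoxC and 9 of HoxD. RNA sequencing covered 3 groups of 2 libraries each: cells obtained by direct reprogramming (called transdifferentiated cells), muscle, and mouse embryonic fibroblasts (MEF), connective tissue cells cultured from embryos. The labels give no strain, age, sex or source for the muscle, and no starting cell, factor or time for the conversion. They also do not say if the replicates are separate cultures or animals, so that p-values describe only the spread between these libraries, which could be technical. In such bulk samples, fewer cells of a type and less RNA per cell cannot be told apart.

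Hox genes encode transcription factors with a homeodomain. Each cluster is an ordered array in which the gene's number gives its paralogue group, and genes of the same number in different clusters are closest relatives. Low-numbered genes act first and nearest the head, and high-numbered genes later, towards the tail and in the outer limb, so that the active Hox genes mark where a cell arose. Fibroblasts are known to keep such a positional code in culture, and muscle cells carry one as well.

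HoxA lies on chromosome 6 (52155590 to 52260880, minus strand), HoxB on chromosome 11 (96194316 to 96368256), HoxC on chromosome 15 (102921103 to 103036852) and HoxD on chromosome 2 (74668310 to 74765142), the last 3 on the plus strand, in GENCODE M21 on mm10. The stretch just before the start of 4 of the genes is shown because these genes stand for the contrasting patterns described below. Hoxb8 and Hoxd13 were near 0 in muscle and present in the other groups, and Hoxa10 and Hoxd8 were present in all 3 groups. The sequences are the 250 bases before the start of transcription from RefSeq on GRCm38.p6, read 5′ to 3′ on the gene's strand, with each CG dinucleotide, the site of DNA methylation, in capitals. They lie at chr11:96281655-96281904 (plus strand), chr2:74667975-74668224 (plus strand), chr6:52240855-52241104 (minus strand, the upstream of 2 listed starts) and chr2:74704365-74704614 (plus strand).
Hoxb8: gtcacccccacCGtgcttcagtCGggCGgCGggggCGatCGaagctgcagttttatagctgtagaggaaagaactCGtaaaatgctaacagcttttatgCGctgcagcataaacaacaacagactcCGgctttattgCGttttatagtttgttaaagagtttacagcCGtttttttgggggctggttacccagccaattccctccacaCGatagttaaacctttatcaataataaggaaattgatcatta
Hoxd13: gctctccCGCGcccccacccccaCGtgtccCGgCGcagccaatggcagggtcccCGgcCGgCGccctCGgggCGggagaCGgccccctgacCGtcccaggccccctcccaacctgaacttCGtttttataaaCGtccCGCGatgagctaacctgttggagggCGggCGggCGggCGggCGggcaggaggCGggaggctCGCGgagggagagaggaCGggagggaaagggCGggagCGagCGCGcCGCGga
Hoxa10: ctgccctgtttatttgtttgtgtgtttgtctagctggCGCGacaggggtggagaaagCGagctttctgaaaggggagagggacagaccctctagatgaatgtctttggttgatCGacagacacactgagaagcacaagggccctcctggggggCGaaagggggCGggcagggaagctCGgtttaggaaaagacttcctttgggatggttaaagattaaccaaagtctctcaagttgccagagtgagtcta
Hoxd8: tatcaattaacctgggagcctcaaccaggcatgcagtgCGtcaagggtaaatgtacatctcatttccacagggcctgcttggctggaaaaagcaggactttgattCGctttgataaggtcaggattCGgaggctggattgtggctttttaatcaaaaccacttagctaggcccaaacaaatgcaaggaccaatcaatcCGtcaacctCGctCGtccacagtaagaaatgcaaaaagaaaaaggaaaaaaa
The Hoxb8 stretch holds 12 CG and that of Hoxd13 holds 31, against 7 for Hoxa10 and 6 for Hoxd8. The other listed start of Hoxa10 has 20 CG, so that its count depends on the start chosen. The Hoxd13 stretch ends at 74668224, before the GENCODE M21 start of that gene at 74668310. The bases just after this stretch lay in no GENCODE M21 transcript of Hoxd13, so its start is less certain. As many CG or more are held by 33.5%, 5.19%, 46.3% and 50.4% of the 32841 promoter stretches of this length in the RefSeq table. The table matched 22 of the 39 genes, with 24 starts, 9 genes each from HoxA and HoxD, 3 from HoxB and 1 from HoxC. The median was 12.5 CG (range 2 to 35) over these starts and 6.0 over all stretches, a description of the letters only. No methylation was measured in these libraries.

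The libraries held 16817033 to 24584951 counted reads, of which the Hox genes took 3497 to 10380. Levels are given in CPM, a gene's reads relative to the size of its library after correction by edgeR's TMM factors. Markers of other cell types were read beside the Hox genes. Skeletal muscle markers summed to 31827 and 47065 CPM in transdifferentiated cells, 48098 and 44231 CPM in muscle and 380.1 and 242 CPM in MEF, and 8 of 8 passed the test against MEF in both. Fibroblast markers summed to 12265 and 15392 CPM in transdifferentiated cells, 12454 and 6698 CPM in muscle and 26133 and 16435 CPM in MEF. Of the 7 fibroblast markers 2 were higher and 1 lower in transdifferentiated cells than in MEF, 5 were lower in muscle than in MEF, and 5 were higher in transdifferentiated cells than in muscle. Macrophage markers summed to 364 and 378 CPM in transdifferentiated cells, 3.62 and 1.83 CPM in muscle and 42.4 and 32.7 CPM in MEF, and 7 of 7 passed the test in each of the 3 comparisons. Of these 7, Ptprc, a gene of white blood cells in general, and Adgre1 had 0 reads in both muscle libraries. Endothelial markers summed to 4.10 and 9.10 CPM in transdifferentiated cells, 1.83 and 0.122 CPM in muscle and 18.2 and 16.4 CPM in MEF. Schwann cell markers summed to 7.03 and 8.47 CPM in transdifferentiated cells, 1.07 and 0.974 CPM in muscle and 10.2 and 5.93 CPM in MEF. Of the 2 tested, 2 were lower in muscle than in MEF and 2 higher in transdifferentiated cells than in muscle. Epithelial markers summed to at most 10.02 CPM in any library.

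The Hox genes as a whole stood at a similar summed level in transdifferentiated cells and in muscle, but different clusters made up the sum. Over all 39 genes the sum was 204 and 216 CPM in transdifferentiated cells, 213 and 213 CPM in muscle and 572 and 444 CPM in MEF. HoxB summed to 49.6 ± 5.95 CPM in transdifferentiated cells, 2.39 ± 0.363 CPM in muscle and 169 ± 31 CPM in MEF (mean ± SD, n = 2 each, as for all such values). HoxB made up 22.3% and 24.9% of the Hox reads in the transdifferentiated libraries, 1.24% and 1% in those of muscle and 33.4% and 33.1% in those of MEF.

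HoxC was the largest part in muscle, with 57.9% and 52.1% of the Hox reads, and it took 23.1% and 24.9% in transdifferentiated cells and 32.7% and 31.4% in MEF. Its sum was 50.5 ± 4.75 CPM in transdifferentiated cells, 117 ± 8.92 CPM in muscle and 163 ± 33.6 CPM in MEF. HoxD summed to 61.7 ± 4.95 CPM in transdifferentiated cells, 29.2 ± 7.03 CPM in muscle and 45.9 ± 2.53 CPM in MEF. HoxD alone among the clusters had a higher sum in both transdifferentiated libraries than in both MEF libraries. Most of that difference lay in Hoxd8, at 34.5 ± 4.63 CPM in transdifferentiated cells and 20.01 ± 5.09 CPM in MEF. Hoxd9 to Hoxd13 summed to 25.1 ± 1.06 CPM in transdifferentiated cells and 22.9 ± 2.69 CPM in MEF. Hoxd1 to Hoxd4 summed to 2.04 ± 0.741 CPM in transdifferentiated cells and 3.01 ± 0.134 CPM in MEF. HoxA summed to 48.1 ± 2.95 CPM in transdifferentiated cells, 64.3 ± 1.9 CPM in muscle and 129.7 ± 27.9 CPM in MEF. These sums carry no test.

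**Figure D1:**
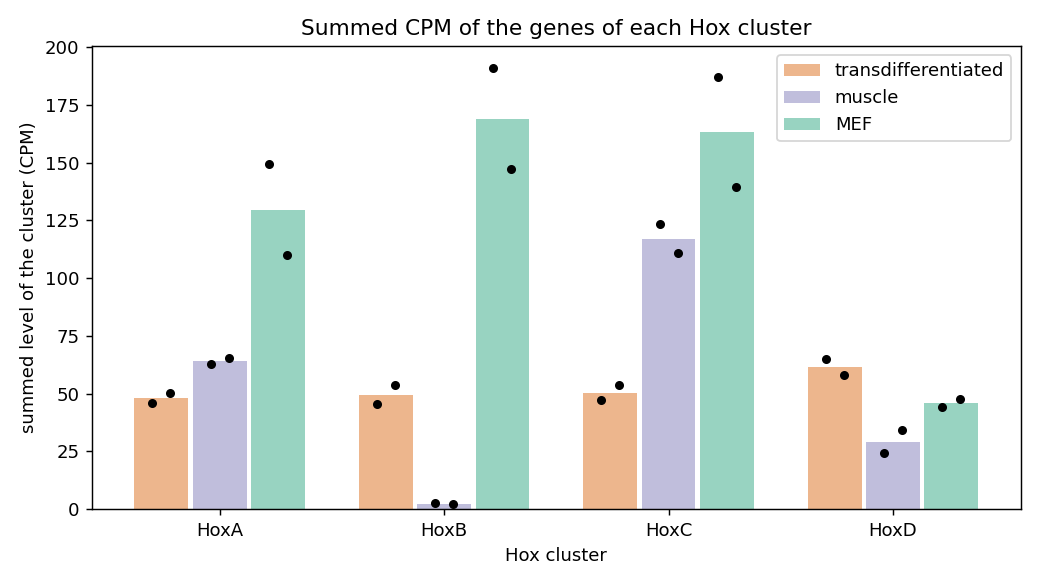
Summed level of the genes of each Hox cluster in CPM; bars are means of 2 libraries and points the single libraries, in transdifferentiated cells (orange), muscle (purple) and MEF (green). HoxB is close to 0 in muscle, at 2.39 CPM, and HoxC is higher in muscle than in transdifferentiated cells, at 117 against 50.5 CPM.

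Of the 39 genes, 37 passed the filter on low counts and were tested. Hoxb1, a hindbrain gene, had 0 reads in all 6 libraries, which allows up to 0.128 to 0.183 CPM in a library (an upper limit of 3 reads, for counting error only). Hoxd1 had 4 and 3 reads in transdifferentiated cells, 0 and 0 in muscle and 12 and 1 in MEF and was not tested.

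**Figure D2:**
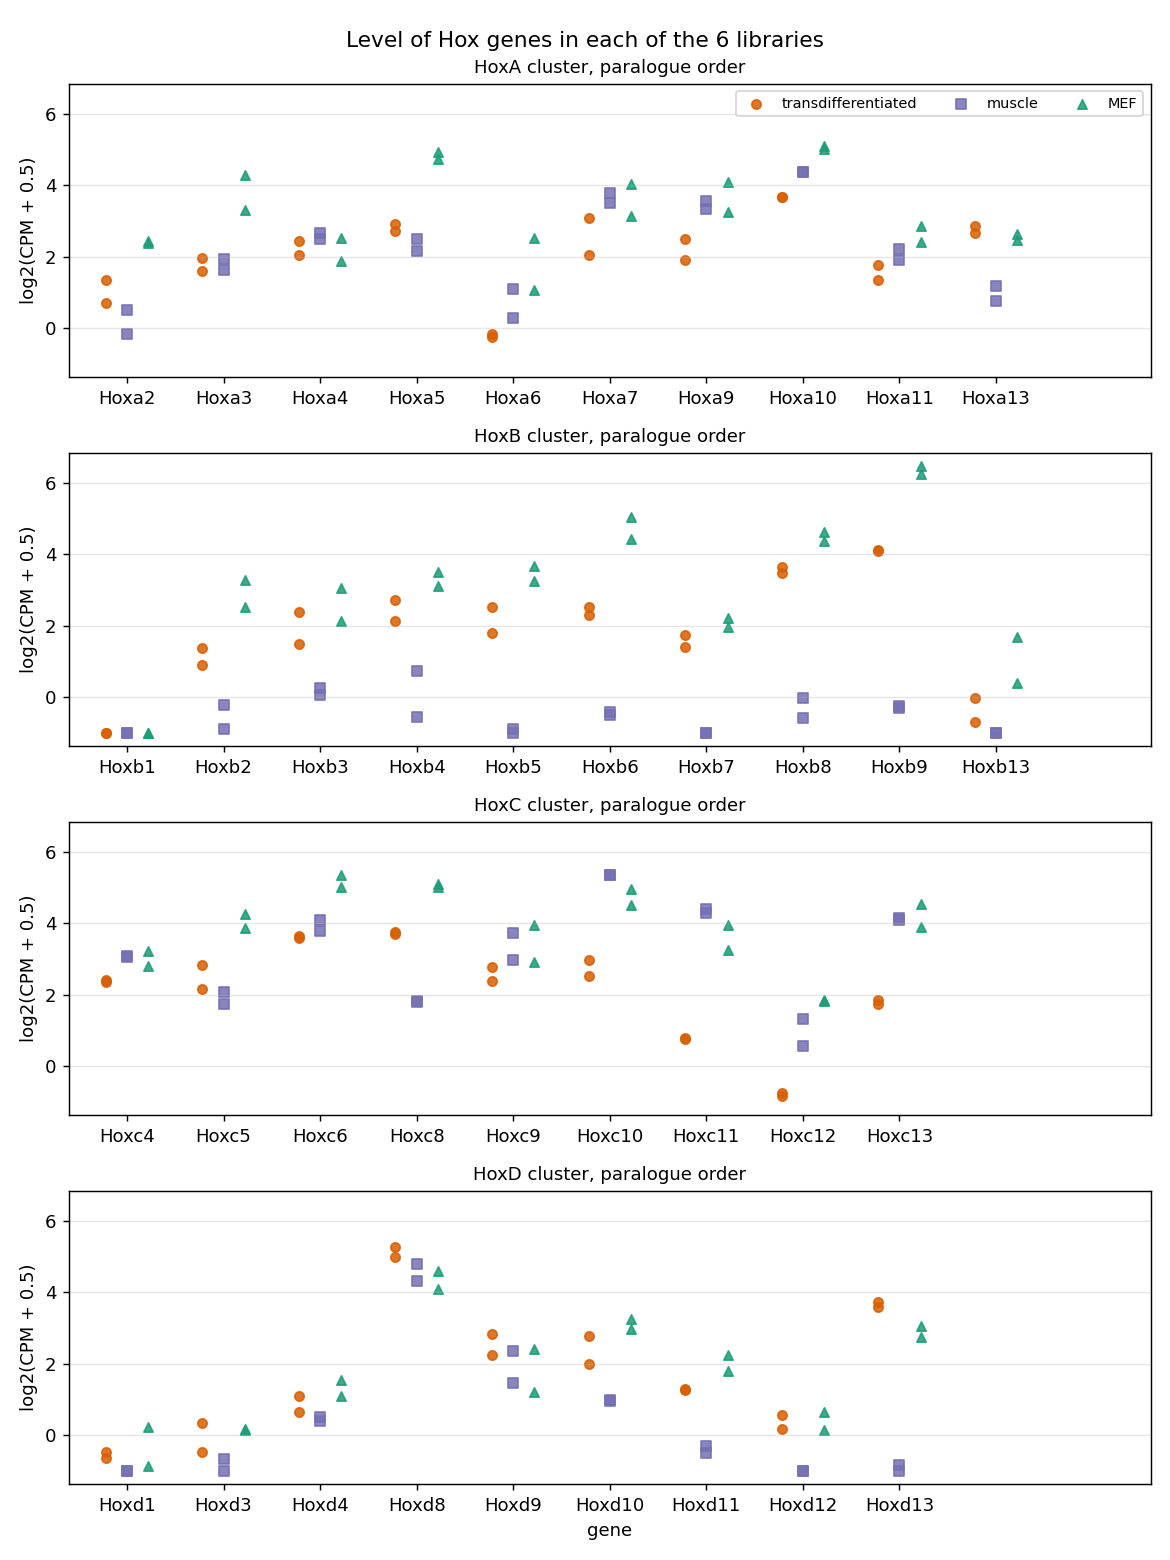
Level of Hox genes as log2(CPM + 0.5) in each library, with a panel for each cluster and genes in paralogue order; circles are transdifferentiated, squares muscle and triangles MEF libraries. Muscle squares lie at the bottom of the HoxB panel and at Hoxd11 to Hoxd13, and transdifferentiated circles lie lowest at Hoxc10 to Hoxc13.

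Differences are given as log2 folds of the first group named over the second, ± SE. In muscle, set against MEF, all tested HoxB genes and the genes at the high-numbered end of HoxD were lower, whereas those at the high-numbered end of HoxC were not called. Over the 4 clusters 21 of 37 tested genes were lower, 56.8% of them (background: 18.3% of 17400 tested genes), and 0 were higher (background: 17.3%; 0 at an unadjusted p under 0.05 with edgeR and 0 with DESeq2). The lower genes were 9 of 9 in HoxB, 5 of 11 in HoxA, 3 of 9 in HoxC and 4 of 8 in HoxD. Median log2 fold changes were -6.84 in HoxB, -1.54 in HoxA, -0.14 in HoxC and -2.73 in HoxD, against 0 over all tested genes. With genes at 0 reads in muscle set to their bound, the medians were -5.25 in HoxB and -2.46 in HoxD. The summed fibroblast, macrophage, endothelial and Schwann cell markers given above were lower in both muscle libraries than in both MEF libraries. Their part in these differences was not tested.

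Hoxb9, a gene of the trunk, had the highest HoxB level in MEF. It was at 0.341 and 0.304 CPM in muscle and 87.7 and 75.7 CPM in MEF, which is 8 and 5 reads in muscle and 1592 and 1558 in MEF (log2 fold -7.94 ± 0.37, edgeR adjusted p = 1.5e-06). Hoxb8, a trunk gene also active in blood progenitors, was at 0.171 and 0.487 CPM in muscle and 24.2 and 20.01 CPM in MEF, and Hoxb6 at 0.213 and 0.243 CPM in muscle and 32.2 and 21 CPM in MEF. For all 3 genes the groups were far apart, with log2 fold changes between -7.94 and -6.13.

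Hoxb7 had 0 reads in both muscle libraries and 75 and 70 in MEF. It was at least 24.3-fold lower in muscle, taking the mean of the 2 libraries' limits of 3 reads as the floor. Hoxb5 had 1 and 0 reads in muscle and 221 and 186 in MEF, a ratio of MEF to muscle of 419 (74.8 to 16587), where the exact 95% interval covers counting error only. Hoxb13, a gene of the tail end, had 0 reads in muscle and 49 and 17 in MEF and was at least 11.4-fold lower.

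The low-numbered HoxB genes were lower in muscle as well. Hoxb4, also known from blood stem cells, was at 1.15 and 0.183 CPM in muscle and 10.9 and 8.16 CPM in MEF (log2 fold -3.74 ± 0.66, edgeR adjusted p = 0.00241). Hoxb3 was at 0.682 and 0.548 CPM in muscle and 7.82 and 3.89 CPM in MEF (log2 fold -3.22 ± 0.58, edgeR adjusted p = 0.00278). Hoxb2, a hindbrain gene, was at 0.0426 and 0.365 CPM in muscle and 9.25 and 5.2 CPM in MEF (log2 fold -5.25 ± 0.77, edgeR adjusted p = 8.9e-04). Each was lower in both muscle libraries than in both MEF libraries.

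In HoxD, genes 10 to 13, which pattern the limb towards the digits, were lower in muscle. Hoxd13, a digit gene, had 0 and 1 reads in muscle and 113 and 161 in MEF, a ratio of MEF to muscle of 282 (50.2 to 11180). Hoxd12 had 0 reads in muscle and 11 and 22 in MEF and was at least 5.39-fold lower. Hoxd11 and Hoxd10 had reads in both muscle libraries. Hoxd11 was at 0.213 and 0.304 CPM in muscle and 4.19 and 2.96 CPM in MEF (log2 fold -3.78 ± 0.55, edgeR adjusted p = 8.2e-04). Hoxd10 was at 1.45 and 1.46 CPM in muscle and 8.98 and 7.33 CPM in MEF (log2 fold -2.48 ± 0.44, edgeR adjusted p = 0.00243).

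The HoxD genes beyond these were not called in muscle against MEF. Hoxd9 averaged 3.44 ± 1.67 CPM in muscle and 3.29 ± 2.12 CPM in MEF (log2 fold 0.06 ± 0.57, edgeR adjusted p = 0.95). Hoxd8 was at 19.4 and 26.8 CPM in muscle and 16.4 and 23.6 CPM in MEF (log2 fold 0.21 ± 0.31, edgeR adjusted p = 0.643), with overlapping groups. Hoxd4 averaged 0.862 ± 0.0726 CPM in muscle and 2.04 ± 0.549 CPM in MEF (log2 fold -1.24 ± 0.53, edgeR adjusted p = 0.0995). Hoxd3 had 3 and 0 reads in muscle and 11 and 13 in MEF, a ratio of MEF to muscle of 8.23 (2.5 to 42.7).

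In HoxC and HoxA most high-numbered genes were not called in muscle against MEF. Hoxc10, a gene of the lumbar region and hindlimb, was at 39.8 and 40.1 CPM in muscle and 30.7 and 22.1 CPM in MEF (log2 fold 0.60 ± 0.29, edgeR adjusted p = 0.15). Hoxc11, of the same region, was at 20.7 and 18.9 CPM in muscle and 14.9 and 8.94 CPM in MEF (log2 fold 0.73 ± 0.34, edgeR adjusted p = 0.126). For both genes the muscle libraries were above the MEF libraries without passing the test. Hoxc13, which acts in hair and nails, was at 17.2 and 16.4 CPM in muscle and 22.8 and 14.4 CPM in MEF (log2 fold -0.14 ± 0.32, edgeR adjusted p = 0.764), with muscle between the MEF libraries. Hoxc9 was at 12.7 and 7.36 CPM in muscle and 15 and 7.04 CPM in MEF (log2 fold -0.13 ± 0.45, edgeR adjusted p = 0.849). Hoxc12 was at 2 and 0.974 CPM in muscle and 3.03 and 3.11 CPM in MEF (log2 fold -1.02 ± 0.52, edgeR adjusted p = 0.16). A p that misses the threshold does not show that such levels were alike.

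The central HoxC genes were lower in muscle. Hoxc8, which patterns the thorax, was at 2.94 and 3.04 CPM in muscle and 33.4 and 31.7 CPM in MEF (log2 fold -3.44 ± 0.30, edgeR adjusted p = 4.3e-05). Hoxc6 was at 16.6 and 13.1 CPM in muscle and 39.98 and 31.9 CPM in MEF (log2 fold -1.27 ± 0.28, edgeR adjusted p = 0.00754), and Hoxc5 at 3.67 and 2.86 CPM in muscle and 18.5 and 13.9 CPM in MEF (log2 fold -2.30 ± 0.39, edgeR adjusted p = 0.002). These 3 stood between Hoxc4, not called at a log2 fold change of 0.04 ± 0.33, and Hoxc9.

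In HoxA, genes lower in muscle than in MEF included Hoxa2, Hoxa3, Hoxa5 and Hoxa13. Hoxa5, which acts in the neck, thorax and lung, was at 3.92 and 5.17 CPM in muscle and 29.8 and 25.8 CPM in MEF (log2 fold -2.61 ± 0.32, edgeR adjusted p = 3.1e-04). Hoxa3, a gene of the throat region, was at 3.28 and 2.56 CPM in muscle and 19.1 and 9.33 CPM in MEF (log2 fold -2.27 ± 0.44, edgeR adjusted p = 0.00406). Hoxa13, the partner of Hoxd13 in the outer limb, was at 1.19 and 1.76 CPM in muscle and 5.01 and 5.63 CPM in MEF (log2 fold -1.86 ± 0.40, edgeR adjusted p = 0.00628). It lies at the opposite end of the cluster from the others. Hoxa10, a gene of the lumbar region, was at 20.3 and 20.2 CPM in muscle and 33.7 and 31.9 CPM in MEF (log2 fold -0.69 ± 0.26, edgeR adjusted p = 0.063). Hoxa9 was at 11.1 and 9.56 CPM in muscle and 16.6 and 8.99 CPM in MEF, and Hoxa7 at 10.9 and 13.1 CPM in muscle and 15.8 and 8.26 CPM in MEF, both with overlapping groups. Hoxa4, Hoxa6 and Hoxa11 averaged 1.18 to 5.48 CPM in muscle and 3.42 to 5.71 CPM in MEF and were not called. The call was lost for Hoxc6 without Muscle replicate 2 (edgeR adjusted p = 0.0902) and for Hoxa13 without Muscle replicate 1 (0.0645).

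The authors' deposited table lists 2806 genes, none with a fold change under 4. The counts hold 55286 symbols, of which 24642 had 0 reads in every library and 17400 were tested here. The deposited table holds 17 of the 39 Hox genes (37 tested here), of which 9 are HoxB, 4 HoxD, 3 HoxA and 1 HoxC genes. Its contrast is unnamed, and the 2645 of its genes tested here all had the sign of MEF over muscle. In the authors' deposited table Hoxb9 has a log2 fold change of 7.86, Hoxb5 of 7.63 and Hoxd13 of 7.11. All 17 were also called here. Their direction is no separate result, because the sign of the contrast was read from these same data. Both comparisons use the same libraries, so the calls are not independent of each other.

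Transdifferentiated cells were set against MEF, the fibroblasts of the series; the labels do not name the cells from which conversion started. Of the 37 tested genes 18 were lower, 48.6% of them (background: 11.3% of 17400 tested genes), 0 were higher (background: 15.9%) and 19 were neither. The higher count was 1 at an unadjusted p under 0.05 with edgeR (Hoxd8, named after its values were seen) and 0 with DESeq2. The lower genes were 7 of 11 in HoxA, 4 of 9 in HoxB, 7 of 9 in HoxC and 0 of 8 in HoxD. In HoxD 0 genes were lower at an unadjusted p under 0.05 with edgeR and 0 with DESeq2. Median log2 fold changes were -1.61 in HoxA, -1.37 in HoxB, -1.61 in HoxC and -0.18 in HoxD, against 0.07 over all tested genes. The difference between clusters was not tested. Summed fibroblast markers were lower and macrophage markers higher in both transdifferentiated libraries than in both MEF libraries. By gene, Col3a1 and Lum were higher, Thy1 was lower and 4 of the 7 fibroblast markers were not called, and their part in these differences was not tested.

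By fitted fold change, the largest decreases of the 37 genes were those of Hoxc12 and Hoxc11. Hoxc12 had 1 and 2 reads in transdifferentiated cells and 55 and 64 in MEF, a ratio of MEF to transdifferentiated cells of 39.4 (13.1 to 194). Hoxc11 was at 1.18 and 1.21 CPM in transdifferentiated cells and 14.9 and 8.94 CPM in MEF (log2 fold -3.31 ± 0.39, edgeR adjusted p = 3.8e-04). Their neighbours followed the same direction. Hoxc13 was at 2.81 and 3.1 CPM in transdifferentiated cells and 22.8 and 14.4 CPM in MEF (log2 fold -2.65 ± 0.35, edgeR adjusted p = 7.0e-04). Hoxc10 was at 5.28 and 7.36 CPM in transdifferentiated cells and 30.7 and 22.1 CPM in MEF (log2 fold -2.06 ± 0.31, edgeR adjusted p = 0.00152). Each of these 4 genes was lower in both transdifferentiated libraries than in both MEF libraries.

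Further in along HoxC the differences from MEF were smaller. Hoxc8 was at 13 and 12.4 CPM in transdifferentiated cells and 33.4 and 31.7 CPM in MEF (log2 fold -1.36 ± 0.27, edgeR adjusted p = 0.00621). Hoxc6 was at 11.5 and 12 CPM in transdifferentiated cells and 39.98 and 31.9 CPM in MEF (log2 fold -1.61 ± 0.29, edgeR adjusted p = 0.00334). Hoxc5 was at 3.99 and 6.63 CPM in transdifferentiated cells and 18.5 and 13.9 CPM in MEF (log2 fold -1.60 ± 0.38, edgeR adjusted p = 0.0136). All 3 passed the test. Hoxc9, between Hoxc8 and Hoxc10, was at 4.67 and 6.29 CPM in transdifferentiated cells and 15 and 7.04 CPM in MEF and did not (log2 fold -1.01 ± 0.46, edgeR adjusted p = 0.139), and neither did Hoxc4 (log2 fold -0.69 ± 0.34, edgeR adjusted p = 0.165).

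HoxB genes other than Hoxb1 had reads in transdifferentiated cells, and 4 of the 9 tested were lower than in MEF. Hoxb9 was at 16.4 and 16.8 CPM in transdifferentiated cells and 87.7 and 75.7 CPM in MEF (log2 fold -2.30 ± 0.26, edgeR adjusted p = 2.8e-04). Hoxb6 was at 4.38 and 5.18 CPM in transdifferentiated cells and 32.2 and 21 CPM in MEF (log2 fold -2.47 ± 0.35, edgeR adjusted p = 0.00102). These were the 2 highest HoxB genes of MEF. Hoxb2 was at 1.35 and 2.08 CPM in transdifferentiated cells and 9.25 and 5.2 CPM in MEF (log2 fold -2.06 ± 0.60, edgeR adjusted p = 0.0324). Hoxb5 was at 2.98 and 5.18 CPM in transdifferentiated cells and 12.2 and 9.03 CPM in MEF (log2 fold -1.37 ± 0.43, edgeR adjusted p = 0.0444). Hoxb8 was at 11.9 and 10.6 CPM in transdifferentiated cells and 24.2 and 20.01 CPM in MEF, below both MEF libraries without passing the test (log2 fold -0.98 ± 0.36, edgeR adjusted p = 0.0755).

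The remaining HoxB genes were not called against MEF. Hoxb4 was at 3.88 and 6.05 CPM in transdifferentiated cells and 10.9 and 8.16 CPM in MEF (log2 fold -0.94 ± 0.56, edgeR adjusted p = 0.259). Hoxb3 was at 2.3 and 4.74 CPM in transdifferentiated cells and 7.82 and 3.89 CPM in MEF (log2 fold -0.72 ± 0.50, edgeR adjusted p = 0.331). Hoxb7 was at 2.14 and 2.81 CPM in transdifferentiated cells and 4.13 and 3.4 CPM in MEF (log2 fold -0.60 ± 0.46, edgeR adjusted p = 0.376). All 3 had log2 folds below 0 and did not pass the test. Hoxb13 had 2 and 10 reads in transdifferentiated cells and 49 and 17 in MEF (log2 fold -2.50 ± 0.92, edgeR adjusted p = 0.0843).

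HoxD levels in transdifferentiated cells lay on both sides of those in MEF, with log2 fold changes of -0.89 to 0.78. Hoxd13 was at 12.6 and 11.5 CPM in transdifferentiated cells and 6.22 and 7.82 CPM in MEF (log2 fold 0.78 ± 0.38, edgeR adjusted p = 0.167). Hoxd8 was at 37.8 and 31.2 CPM in transdifferentiated cells and 16.4 and 23.6 CPM in MEF (log2 fold 0.78 ± 0.31, edgeR adjusted p = 0.0927). For both genes each transdifferentiated library was above each MEF library, and the test was not passed. Hoxd10 was at 6.35 and 3.44 CPM in transdifferentiated cells and 8.98 and 7.33 CPM in MEF (log2 fold -0.74 ± 0.40, edgeR adjusted p = 0.214). Hoxd11 was at 1.97 and 1.89 CPM in transdifferentiated cells and 4.19 and 2.96 CPM in MEF (log2 fold -0.89 ± 0.45, edgeR adjusted p = 0.184). Both lay below MEF without passing the test. Hoxd12 had 11 and 20 reads in transdifferentiated cells and 11 and 22 in MEF (log2 fold -0.08 ± 0.70, edgeR adjusted p = 0.948). Hoxd9 averaged 5.43 ± 1.64 CPM in transdifferentiated cells and 3.29 ± 2.12 CPM in MEF, Hoxd4 1.36 ± 0.409 CPM in transdifferentiated cells and 2.04 ± 0.549 CPM in MEF, and Hoxd3 0.5 ± 0.389 CPM in transdifferentiated cells and 0.619 ± 0.0181 CPM in MEF. Standard errors in this cluster ran from 0.31 to 0.88 on the log2 scale.

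In HoxA, Hoxa5 had the smallest adjusted p, at 6.13 and 7.07 CPM in transdifferentiated cells and 29.8 and 25.8 CPM in MEF (log2 fold -2.07 ± 0.31, edgeR adjusted p = 0.00142). Hoxa10 was at 12.2 and 12.3 CPM in transdifferentiated cells and 33.7 and 31.9 CPM in MEF (log2 fold -1.42 ± 0.26, edgeR adjusted p = 0.00392). Hoxa3 was at 2.53 and 3.39 CPM in transdifferentiated cells and 19.1 and 9.33 CPM in MEF (log2 fold -2.26 ± 0.44, edgeR adjusted p = 0.00576). All 3 were lower in transdifferentiated cells in both libraries. Hoxa9 was at 3.26 and 5.08 CPM in transdifferentiated cells and 16.6 and 8.99 CPM in MEF and was also called lower (log2 fold -1.61 ± 0.41, edgeR adjusted p = 0.0192). Hoxa2 and Hoxa6 were lower as well, with log2 fold changes of -1.62 ± 0.52 and -3.20 ± 0.76. Hoxa13 was not called, at 6.69 and 5.76 CPM in transdifferentiated cells and 5.01 and 5.63 CPM in MEF (log2 fold 0.22 ± 0.37, edgeR adjusted p = 0.7). Hoxa7 was at 3.65 and 7.89 CPM in transdifferentiated cells and 15.8 and 8.26 CPM in MEF and was not called either, nor were Hoxa4 (0.02 ± 0.40) and Hoxa11 (-1.22 ± 0.41).

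Some of these calls rested on single libraries. Without MEF replicate 1 the count of lower genes was 12, and the calls of Hoxa2, Hoxa6, Hoxa9, Hoxb2, Hoxb5 and Hoxc5 were lost (edgeR adjusted p = 0.051 to 0.168). Without Transdifferentiated replicate 1 those of Hoxa9, Hoxb2, Hoxb5 and Hoxc5 were lost (edgeR adjusted p = 0.0753 to 0.206). Hoxa2 was also lost without MEF replicate 2 or Transdifferentiated replicate 2 (edgeR adjusted p = 0.0792 and 0.182), and Hoxb5 without Muscle replicate 1 or 2 (0.0546 and 0.0548).

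**Figure D3:**
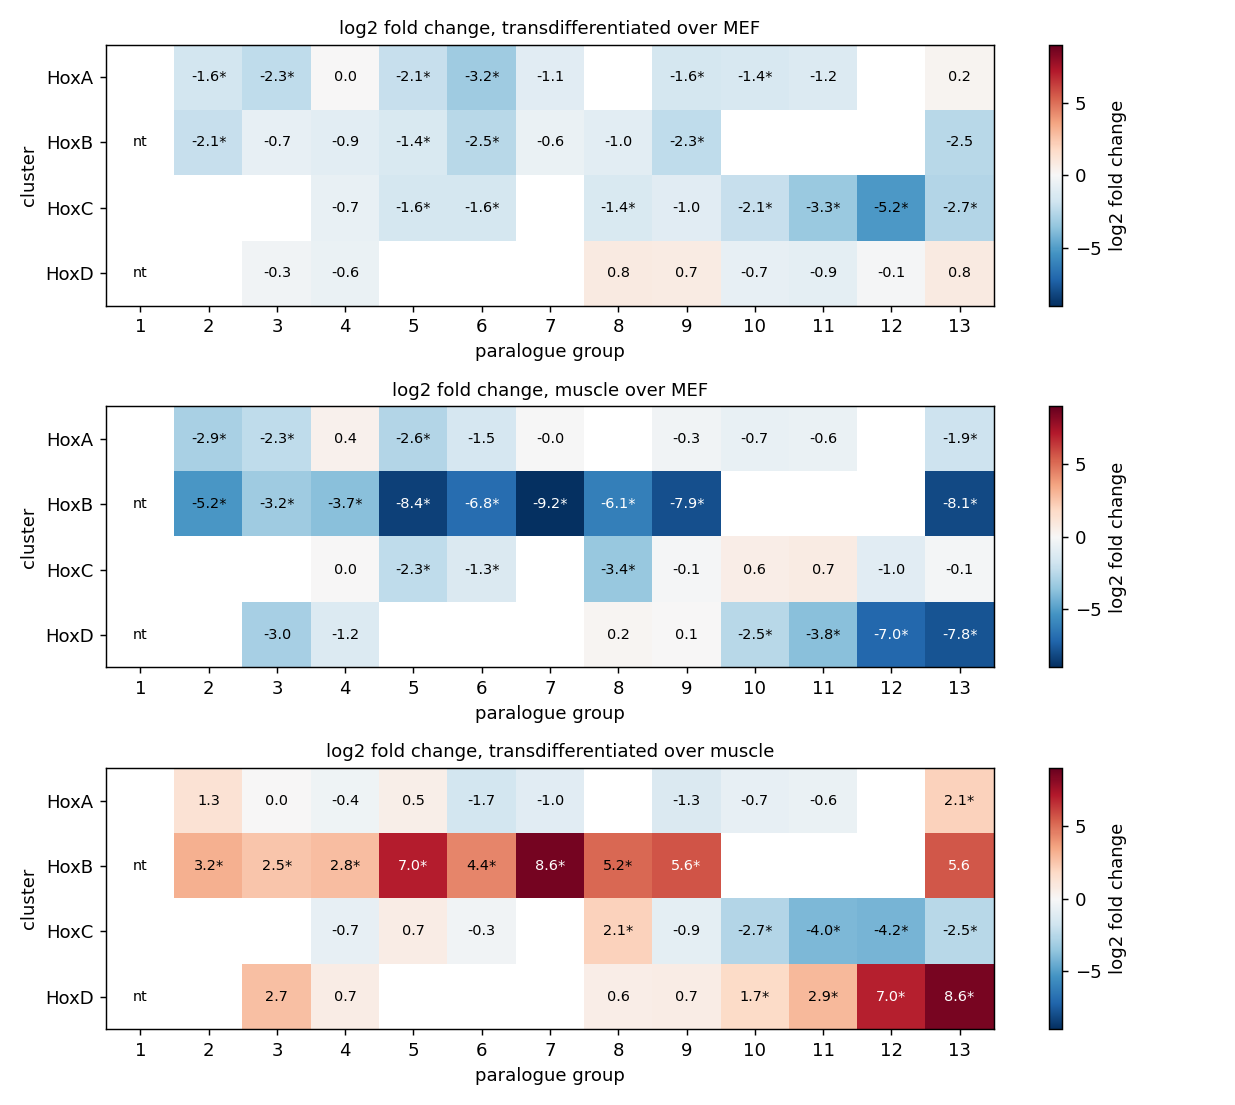
Log2 fold change of Hox genes by cluster (rows) and paralogue group (columns) for transdifferentiated over MEF, muscle over MEF and transdifferentiated over muscle; a star marks an edgeR adjusted p under 0.05, nt a gene not tested, and blank cells have no gene or none shown. Fitted values of genes at 0 or 1 read in muscle depend on the prior count. In the lowest panel the HoxB row and the right end of HoxD are positive and the right end of HoxC is negative.

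Set directly against muscle, transdifferentiated cells differed in 18 of the 37 tested genes, in both directions. Of these 14 were higher, 37.8% of those tested (background: 7.58% of 17400 tested genes), and 4 were lower, 10.8% (background: 2.46%). The higher genes were 8 of 9 in HoxB, 4 of 8 in HoxD, 1 of 11 in HoxA and 1 of 9 in HoxC. The 4 lower genes, Hoxc10 to Hoxc13, are neighbours at one end of HoxC. Median log2 fold changes were 5.15 in HoxB, 2.22 in HoxD, -0.36 in HoxA and -0.87 in HoxC, against 0.03 over all tested genes. With genes at 0 reads in muscle set to their bound, the medians were 3.99 in HoxB and 2.05 in HoxD. Summed macrophage, endothelial and Schwann cell markers were higher in both transdifferentiated libraries than in both muscle libraries. Of 7 fibroblast markers 5 were called higher, and the part of all these markers in the differences was not tested.

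Hoxb9 was at 16.4 and 16.8 CPM in transdifferentiated cells and 0.341 and 0.304 CPM in muscle (log2 fold 5.64 ± 0.35, edgeR adjusted p = 1.0e-04). Hoxb8 was at 11.9 and 10.6 CPM in transdifferentiated cells and 0.171 and 0.487 CPM in muscle (log2 fold 5.15 ± 0.49, edgeR adjusted p = 4.0e-04). Hoxb6 was at 4.38 and 5.18 CPM in transdifferentiated cells and 0.213 and 0.243 CPM in muscle (log2 fold 4.36 ± 0.47, edgeR adjusted p = 6.8e-04). These central HoxB genes were near 0 in muscle and clearly read in transdifferentiated cells. Hoxb7 was at 2.14 and 2.81 CPM in transdifferentiated cells against 0 reads in muscle, at least 15.9-fold higher. Hoxb5 was at 2.98 and 5.18 CPM in transdifferentiated cells with 1 and 0 reads in muscle, a ratio of 166 (29.4 to 6597). The low-numbered genes followed with smaller differences. Hoxb4 was at 3.88 and 6.05 CPM in transdifferentiated cells and 1.15 and 0.183 CPM in muscle (log2 fold 2.81 ± 0.65, edgeR adjusted p = 0.0266). Hoxb3 was at 2.3 and 4.74 CPM in transdifferentiated cells and 0.682 and 0.548 CPM in muscle (log2 fold 2.50 ± 0.58, edgeR adjusted p = 0.027). Hoxb2 was at 1.35 and 2.08 CPM in transdifferentiated cells and 0.0426 and 0.365 CPM in muscle (log2 fold 3.19 ± 0.78, edgeR adjusted p = 0.0347). Hoxb13, with 2 and 10 reads in transdifferentiated cells and 0 in muscle, was not called (edgeR adjusted p = 0.133).

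Hoxd13 had 225 and 237 reads in transdifferentiated cells and 0 and 1 in muscle, a ratio of 479 (85.6 to 18972) with edgeR adjusted p = 2.5e-04. Hoxd12 had 11 and 20 reads in transdifferentiated cells and 0 in muscle and was at least 5.11-fold higher. Hoxd11 was at 1.97 and 1.89 CPM in transdifferentiated cells and 0.213 and 0.304 CPM in muscle (log2 fold 2.89 ± 0.56, edgeR adjusted p = 0.0115). Hoxd10 was at 6.35 and 3.44 CPM in transdifferentiated cells and 1.45 and 1.46 CPM in muscle (log2 fold 1.74 ± 0.43, edgeR adjusted p = 0.0362). All 4 of these HoxD genes were called higher. Hoxd8 was at 37.8 and 31.2 CPM in transdifferentiated cells and 19.4 and 26.8 CPM in muscle and was not called (log2 fold 0.58 ± 0.31, edgeR adjusted p = 0.338). Hoxa13 was at 6.69 and 5.76 CPM in transdifferentiated cells and 1.19 and 1.76 CPM in muscle (log2 fold 2.08 ± 0.40, edgeR adjusted p = 0.0115), the 1 HoxA gene called, and Hoxc8 at 13 and 12.4 CPM in transdifferentiated cells and 2.94 and 3.04 CPM in muscle (log2 fold 2.09 ± 0.29, edgeR adjusted p = 0.00241), the 1 HoxC gene called higher.

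At the high-numbered end of HoxC transdifferentiated cells were lower than muscle. Hoxc10 was at 5.28 and 7.36 CPM in transdifferentiated cells and 39.8 and 40.1 CPM in muscle (log2 fold -2.66 ± 0.32, edgeR adjusted p = 0.0012). Hoxc11 was at 1.18 and 1.21 CPM in transdifferentiated cells and 20.7 and 18.9 CPM in muscle (log2 fold -4.04 ± 0.40, edgeR adjusted p = 4.6e-04). Hoxc13 was at 2.81 and 3.1 CPM in transdifferentiated cells and 17.2 and 16.4 CPM in muscle (log2 fold -2.51 ± 0.35, edgeR adjusted p = 0.00249). No library of 1 group reached the other group for these genes. Hoxc12 had 1 and 2 reads in transdifferentiated cells and 47 and 16 in muscle, a ratio of muscle to transdifferentiated cells of 20.2 (6.62 to 101). Hoxc9, the next gene inward, was at 4.67 and 6.29 CPM in transdifferentiated cells and 12.7 and 7.36 CPM in muscle and was not called (log2 fold -0.87 ± 0.46, edgeR adjusted p = 0.328). Nor were the HoxA genes of these numbers, Hoxa9 (log2 fold -1.31 ± 0.41, edgeR adjusted p = 0.0858), Hoxa10 (log2 fold -0.73 ± 0.26, edgeR adjusted p = 0.13) and Hoxa11 (log2 fold -0.59 ± 0.41, edgeR adjusted p = 0.502).

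The count of 14 higher genes was 8 without Muscle replicate 1 and 8 without Muscle replicate 2. Either removal lost the calls of Hoxa13, Hoxb3, Hoxd10, Hoxd11 and Hoxd12 (edgeR adjusted p = 0.0535 to 0.196). Hoxb2 and Hoxc12 were lost without Muscle replicate 1 (edgeR adjusted p = 0.194 and 0.0535) and Hoxb4 without Muscle replicate 2 (0.105). Without Transdifferentiated replicate 2 the calls of Hoxb2, Hoxb3, Hoxb4 and Hoxd12 were lost (edgeR adjusted p = 0.0509 to 0.112), and without Transdifferentiated replicate 1 that of Hoxd10 (0.209). Hoxb5 to Hoxb9, Hoxd13 and Hoxc8 passed the test without any one library.

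Members of a paralogue group differed among themselves. In group 13, Hoxa13 and Hoxd13 were higher and Hoxc13 lower in transdifferentiated cells than in muscle. The sum of group 13 was 21.5 ± 1.02 CPM in transdifferentiated cells, 18.3 ± 0.115 CPM in muscle and 32.7 ± 5.68 CPM in MEF. In group 10 Hoxd10 was higher, Hoxc10 lower and Hoxa10 not called against muscle, and the sum was 23.5 ± 0.524 CPM in transdifferentiated cells, 61.7 ± 0.14 CPM in muscle and 67.3 ± 8.6 CPM in MEF. In group 9 Hoxb9 alone of 4 members was called against muscle, and the sum was 31.6 ± 4.35 CPM in transdifferentiated cells, 24.1 ± 3.25 CPM in muscle and 109 ± 21.6 CPM in MEF. By number, the genes lower in transdifferentiated cells than in MEF were 4 of 10 tested in groups 1 to 4, 7 of 11 in groups 5 to 8 and 7 of 16 in groups 9 to 13 (background: 11.3%). The genes lower in muscle than in MEF were 6 of 10, 8 of 11 and 7 of 16 in these groups (background: 18.3%).

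Taken over the 3 comparisons, the 37 tested genes fell into 7 patterns of calls, which share their libraries. In 9 genes (Hoxa13, Hoxb3, Hoxb4, Hoxb7, Hoxb8, Hoxd10, Hoxd11, Hoxd12 and Hoxd13) muscle was lower than both others, and transdifferentiated cells and MEF were not called apart. In another 5 (Hoxb2, Hoxb5, Hoxb6, Hoxb9 and Hoxc8) transdifferentiated cells stood above muscle and below MEF, with each pair of groups called apart. For Hoxa2, Hoxa3, Hoxa5, Hoxc5 and Hoxc6 both other groups were lower than MEF and not called apart. The 4 genes Hoxc10 to Hoxc13 were lower in transdifferentiated cells than in both others. Hoxa6, Hoxa9 and Hoxa10 were called between transdifferentiated cells and MEF alone, Hoxb13 between muscle and MEF alone, and 9 genes in no comparison.

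Compared per length, a different gene led in each group. Per kilobase of exon, transdifferentiated cells had most Hoxd8 (12.6 ± 1.69 CPM per kb), followed by Hoxb9 (6.43 ± 0.108 CPM per kb). Hoxc6 (4.88 ± 0.128 CPM per kb), Hoxd13 (4.86 ± 0.334 CPM per kb) and Hoxc8 (4.49 ± 0.162 CPM per kb) came next, and the first 2 of these do not differ beyond their spread. Muscle had most Hoxc10 (20.9 ± 0.104 CPM per kb), followed by Hoxc11 (9.8 ± 0.614 CPM per kb) and Hoxd8 (8.43 ± 1.92 CPM per kb), which lie within their spread of each other. Hoxc13 (6.84 ± 0.228 CPM per kb), Hoxa10 (6.19 ± 0.0199 CPM per kb) and Hoxc6 (6.18 ± 1.02 CPM per kb) came next in muscle. MEF had most Hoxb9 (31.7 ± 3.3 CPM per kb). Hoxc6 (14.9 ± 2.37 CPM per kb), Hoxa5 (14.8 ± 1.51 CPM per kb), Hoxc10 (13.8 ± 3.22 CPM per kb) and Hoxb6 (13.5 ± 4.03 CPM per kb) followed in MEF and do not differ beyond their spread. With the longest transcript as length the first gene of each group stayed first and the order below it changed. Hoxc6 then came before Hoxb9 in transdifferentiated cells, at 7.43 CPM per kb, and was 3rd in muscle, where Hoxc13 was 6th.

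**Figure D4:**
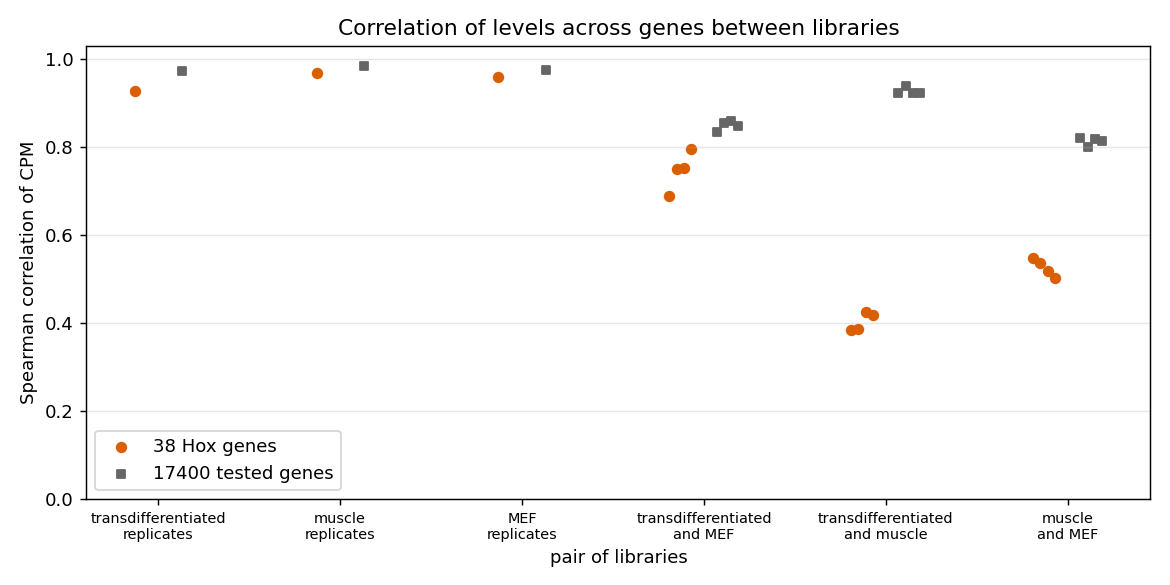
Spearman correlation of CPM between libraries over the 38 Hox genes with reads (circles) and over all 17400 tested genes (squares), each point a pair of libraries. For transdifferentiated cells and muscle the Hox correlation is 0.385 to 0.426 and that of all genes 0.922 to 0.938.

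By rank of level, the Hox genes of transdifferentiated cells were closer to those of MEF than to those of muscle. Over the 38 genes with reads, Spearman correlations were 0.690 to 0.797 between transdifferentiated and MEF libraries, 0.385 to 0.426 between transdifferentiated and muscle libraries and 0.503 to 0.548 between muscle and MEF libraries. Over all 17400 tested genes the order was another one, with 0.834 to 0.860 for transdifferentiated and MEF libraries, 0.922 to 0.938 for transdifferentiated and muscle libraries and 0.801 to 0.821 for muscle and MEF libraries. Replicates correlated over the Hox genes at 0.927 in transdifferentiated cells, 0.969 in muscle and 0.959 in MEF. These are descriptions across genes, which share length and base composition between libraries and are not independent replicates.

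A list of 14 transcripts from the clusters that encode no Hox protein was read from the same fit, of which 11 are in the table and 8 were tested. Gm53, between Hoxb13 and Hoxb9, had 131 and 127 reads in transdifferentiated cells, 3 and 0 in muscle and 462 and 482 in MEF, and all 3 comparisons were called (edgeR adjusted p = 0.00811, 2.0e-05 and 4.6e-04 for transdifferentiated cells against MEF, muscle against MEF and transdifferentiated cells against muscle). Hoxb5os, on the strand opposite to Hoxb5 and Hoxb6, had 7 and 11 reads in transdifferentiated cells, 0 and 0 in muscle and 63 and 56 in MEF. These HoxB transcripts followed the order of their neighbours. Hotair, between Hoxc12 and Hoxc11 on the opposite strand, had 1 and 4 reads in transdifferentiated cells, 55 and 39 in muscle and 6 and 13 in MEF. It was lower in transdifferentiated cells than in muscle (log2 fold -4.13 ± 0.76, edgeR adjusted p = 0.00957). It was also higher in muscle than in MEF (log2 fold 2.27 ± 0.65, edgeR adjusted p = 0.0233), where Hoxc11 and Hoxc12 were not called. Hoxaas2, on the opposite strand at the end of Hoxa3, exceeded its MEF level in transdifferentiated cells (log2 fold 1.41 ± 0.43, edgeR adjusted p = 0.0368) and in muscle (log2 fold 1.23 ± 0.43, edgeR adjusted p = 0.0498).

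Of the 16 protein-coding genes nearest to the clusters, 2 on each side, 13 were tested, and 7 of these were called in no comparison. In muscle against MEF, Hibadh, Skap1, Calcoco1, Smug1 and Cbx5 were called higher and Evx2 lower (background: 17.3% and 18.3%). In transdifferentiated cells against MEF, Calcoco1 and Smug1 were called higher (background: 15.9%). For transdifferentiated cells against muscle, Evx2 was called higher and Skap1 lower (background: 7.58% and 2.46%). Evx2, a homeobox gene next to Hoxd13, had 18 and 17 reads in transdifferentiated cells, 0 and 0 in muscle and 5 and 3 in MEF, with calls against muscle for transdifferentiated cells and for MEF (edgeR adjusted p = 0.0158 and 0.0438). On the other side of HoxD, Mtx2, a mitochondrial import protein, was at 50.9 and 25.3 CPM in transdifferentiated cells and 34.8 and 42.5 CPM in muscle and 20.2 and 30.5 CPM in MEF and was not called. Beside HoxC, the genes Calcoco1 and Smug1 were higher in transdifferentiated cells against MEF, where Hoxc10 to Hoxc13 were lower. Calcoco1 lies 198.9 kb beyond the Hoxc13 end (log2 fold 1.34 ± 0.25, edgeR adjusted p = 0.00447). Smug1 lies 116.4 kb beyond the opposite end, that of Hoxc4 (log2 fold 1.01 ± 0.26, edgeR adjusted p = 0.0188). Beside HoxB, Skap1, an adaptor of T cell signalling, had 7 and 16 reads in transdifferentiated cells, 58 and 106 in muscle and 1 and 3 in MEF. It was higher in muscle against MEF (edgeR adjusted p = 0.00122), where the HoxB genes were lower.

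The TALE homeodomain proteins (the Pbx, Meis and Pknox proteins) bind DNA together with Hox proteins. Of 9 listed, 3 were higher and 3 lower in transdifferentiated cells against MEF (median log2 fold change -0.22), 1 was higher and 4 lower in muscle against MEF (-0.21), and 2 were higher and 7 not called in transdifferentiated cells against muscle (0.75). The background shares of higher and lower genes in these comparisons were 15.9% and 11.3%, 17.3% and 18.3%, and 7.58% and 2.46%. Meis2 was at 26.6 and 28.7 CPM in transdifferentiated cells and 6.18 and 4.63 CPM in muscle and 45.7 and 34.7 CPM in MEF, and Meis1 at 25.9 and 22.4 CPM in transdifferentiated cells and 9 and 7.91 CPM in muscle and 43.8 and 46.6 CPM in MEF. Both were higher in transdifferentiated cells against muscle (log2 fold 2.35 ± 0.30, edgeR adjusted p = 0.00168 for Meis2; log2 fold 1.51 ± 0.27, edgeR adjusted p = 0.00762 for Meis1), as were most HoxB genes. Pknox2 was higher in transdifferentiated cells against MEF (log2 fold 1.56 ± 0.32, edgeR adjusted p = 0.00757).

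Of 13 listed factors that place or pattern the limb and its muscle, 2 were higher and 3 lower in transdifferentiated cells against MEF (median log2 fold change -0.10). In muscle against MEF 2 were higher and 7 lower (-1.51), and in transdifferentiated cells against muscle 4 were higher and 1 lower (1.41). The background shares of higher and lower genes were again 15.9% and 11.3%, 17.3% and 18.3%, and 7.58% and 2.46%. The 1 lower gene was Lbx1, needed for muscle precursors to migrate into the limb, with 17 and 24 reads in transdifferentiated cells, 1168 and 701 in muscle and 1 and 0 in MEF (log2 fold -5.44 ± 0.40, edgeR adjusted p = 1.8e-04). Hand2, a posterior limb bud factor, had 72 and 66 reads in transdifferentiated cells, 2 and 2 in muscle and 211 and 207 in MEF. Tbx5, the forelimb factor, had 35 and 33 reads in transdifferentiated cells, 0 and 1 in muscle and 213 and 152 in MEF. For Hand2 and Tbx5, transdifferentiated cells were between the other groups, lower than MEF (edgeR adjusted p = 0.0114 and 0.00585) and higher than muscle (edgeR adjusted p = 6.4e-04 and 0.00327). Tbx15, a T-box factor of the limb, was higher than in MEF in transdifferentiated cells (log2 fold 1.93 ± 0.26, edgeR adjusted p = 8.2e-04) and in muscle (log2 fold 2.02 ± 0.26, edgeR adjusted p = 4.5e-04).

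Listed genes known to keep or set Hox expression were read from the same fit. Of 15 Polycomb genes, which hold Hox genes silent, 15 were not called between transdifferentiated cells and MEF (edgeR adjusted p of 0.112 or more; background: 27.3% called in either direction). In muscle against MEF 3 were higher and 1 lower (background: 35.6%). Against muscle the chromobox gene Cbx7 was lower in transdifferentiated cells, at 1.07 and 2.08 CPM in transdifferentiated cells and 10.02 and 8.76 CPM in muscle (log2 fold -2.56 ± 0.61, edgeR adjusted p = 0.0295), and 14 were not called (background: 10%). Of 9 Trithorax and MLL genes, which keep Hox genes active, 1 was lower in transdifferentiated cells against MEF (background: 11.3%). It was the MLL partner Men1 (log2 fold -1.02 ± 0.32, edgeR adjusted p = 0.047). In muscle against MEF 1 of these 9 was higher and 1 lower (background: 17.3% and 18.3%). In transdifferentiated cells against muscle 0 of the 9 were called (background: 10%). Of 10 listed upstream inputs of the clusters (retinoic acid genes, Cdx genes and Gdf11), 7 were tested. The 3 Cdx genes had at most 1 read in a library. Of these 7, 1 was higher and 1 lower in transdifferentiated cells against MEF (background: 15.9% and 11.3%). In muscle against MEF 1 was higher and 2 were lower (background: 17.3% and 18.3%), and in transdifferentiated cells against muscle 1 was higher and 1 lower (background: 7.58% and 2.46%). Aldh1a2, which makes retinoic acid, was higher in muscle against MEF (log2 fold 1.90 ± 0.35, edgeR adjusted p = 0.00332) and lower in transdifferentiated cells against muscle (log2 fold -1.30 ± 0.35, edgeR adjusted p = 0.0479). Cyp26b1, which breaks it down, was lower in muscle against MEF (log2 fold -1.42 ± 0.36, edgeR adjusted p = 0.0153) and higher in transdifferentiated cells against muscle (log2 fold 1.48 ± 0.37, edgeR adjusted p = 0.0349). Cyp26a1, a related enzyme, had 26 and 12 reads in transdifferentiated cells, 15 and 2 in muscle and 0 and 2 in MEF, and transdifferentiated cells passed the test against MEF (edgeR adjusted p = 0.037). The retinoic acid receptor Rarg was lower than in MEF in transdifferentiated cells (log2 fold -2.06 ± 0.42, edgeR adjusted p = 0.00707) and in muscle (log2 fold -1.96 ± 0.42, edgeR adjusted p = 0.00649).

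Exons of 16 of the 39 genes overlap another annotated gene, so that reads there could be split or dropped in counting, and their values are less certain. Hoxd3 and Hoxd4 share 62.3% and 52.3% of their exon length with another gene on the same strand, and 52.9% of that of Hoxb3 lies opposite Hoxb3os. Of the 21 tested genes without overlap 10 were lower in transdifferentiated cells against MEF and 12 lower in muscle against MEF (background: 11.3% and 18.3%). Of the 16 with overlap, 8 and 9 were lower in these comparisons. In transdifferentiated cells against muscle 9 of the 21 were higher and 3 lower (background: 7.58% and 2.46%), and 5 of the 16 were higher and 1 lower.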

How the data were processed

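Polyadenylated RNA (Lexogen SENSE kit V2) was sequenced as single-end reads of 75 bp, per the labels' protocols. The authors deposited unnormalized read counts, whole numbers for each symbol and library. The submitters' processing notes name HISAT2 2.1.0 beside Trim Galore 0.6.0, DESeq2 1.26.0 beside featureCounts 1.6.2, and the build mm10. The sources used here do not give the annotation or strand setting of the counting. The deposited comparison holds the authors' log2 fold changes and adjusted p-values, per the file headers.

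The counts were tested in edgeR 4.0.16 under R 4.3.3: filterByExpr kept 17400 genes, TMM set the scale, and a quasi-likelihood model (robust) of group over all 6 libraries left 3 residual degrees of freedom. P-values were Benjamini-Hochberg adjusted over the 17400 genes and called at 0.05. Fold changes carry ± SE, an approximation: the absolute log2 fold change divided by the square root of the quasi-likelihood F statistic. With 2 libraries a group, no exact permutation test can give a p under 0.333. The code was tested on simulated data for transdifferentiated cells against MEF, with 100 genes changed by each of 2 sizes. Of 2-fold changes 5% were called in the right direction, and of 8-fold changes 99%. Far fewer genes were changed there than were called in the real data, so these shares are a rough guide. A gene that differs 2-fold can thus go uncalled. Alternatives were DESeq2 1.42.0 and its size factors, no filter, the 4 compared libraries alone, a replicate block and each library left out. Coordinates, lengths and overlaps are from GENCODE M21, by symbol.

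Members and lists were chosen with earlier results of these data known. Values per library were set for genes reaching 10 CPM in a group, called between transdifferentiated cells and muscle, or with the smallest adjusted p of a comparison and cluster, and for up to 4 genes of a list per comparison. Some single-gene results are not reported here. Other single values were chosen after they were seen.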

Additional observations from a re-analysis of the deposited data

How the results depend on the processing

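The count of lower Hox genes in transdifferentiated cells against MEF was 18, and 15 to 20 under the other scaling, DESeq2, no filter, the compared libraries alone and the replicate block; it was 12 to 20 when each library was left out. In muscle against MEF it was 21, 21 to 24 under those settings, and 19 to 23 with a library left out. In transdifferentiated cells against muscle 14 were higher, 12 to 15 under those settings, and 8 to 14 with a library left out; these runs have fewer samples, and any further cause was not tested. The count of 4 lower genes there was 4 to 5 under those settings and 3 to 5 with a library left out. No gene was called higher against MEF in any of these runs. Same-numbered replicates did not deviate together in every pair of groups (correlations of -0.29 for transdifferentiated cells and muscle, -0.53 for transdifferentiated cells and MEF and 0.31 for muscle and MEF). With 1 correlation for each pair of groups, this cannot exclude that the numbers pair the samples. The labels do not say that they do, and the main fit used no pairing. With the replicate block the counts were 15 lower against MEF, 21 lower in muscle, and 12 higher and 4 lower against muscle.

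Only uncalled genes changed sign. The log2 fold change of Hoxa4 in transdifferentiated cells against MEF was -0.0146 with DESeq2 size factors and -0.0147 with DESeq2. That of Hoxa3 against muscle was -0.0100 with the size factors and -0.00957 with DESeq2. With a library left out, the ranges against MEF in transdifferentiated cells were -0.30 to 0.42 for Hoxa4, -1.46 to 0.33 for Hoxd3 and -0.47 to 0.38 for Hoxd12. In muscle against MEF they were -0.41 to 0.53 for Hoxa7, -0.68 to 0.20 for Hoxa9, -0.17 to 0.27 for Hoxc4, -0.59 to 0.51 for Hoxc9, -0.44 to 0.22 for Hoxc13, -0.0404 to 0.49 for Hoxd8 and -0.53 to 0.92 for Hoxd9. Against muscle it was -0.22 to 0.21 for Hoxa3. The cause was not tested. Where a lone library remained in a group, it was assumed to vary like the other groups. Depth limits genes under 0.128 to 0.183 CPM in a library.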
